A study of Mus musculus with 4 samples.

Results

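Expression of 32 genes of sterol and fatty acid synthesis was examined in mouse tumour-associated macrophages, with and without the drug MK-8931. The genes were taken from the deposited table of 54532 genes by an exact match of the gene symbol. Of the 32 genes, 22 belong to sterol synthesis and its control and 10 to fatty acid synthesis and desaturation, and the groups are described apart. Per the labels, the macrophages were sorted from glioblastoma xenografts as CD45+, Gr1-, CD11b+ and DAPI- cells, and 2 control libraries and 2 MK-8931 libraries of bulk RNA were sequenced. The strain entry of all 4 libraries reads "GBM mice", and no other allele or agent is named for either group. MK-8931 (verubecestat) inhibits the beta-secretase BACE1. The protocol entries instead name glioma stem cells that received the drug or vehicle for 3 days and served as the source of RNA, so the labels leave the route of the drug to the macrophages unstated. Nothing in the labels ties the libraries to separate animals, so each p-value reflects only how these samples spread, a spread that may be technical.

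The libraries held between 18257930 and 20179875 counts, and 3 counts, the limit that a count of 0 allows, came to between 0.153 and 0.163 CPM, the unit of counts scaled to library size. CPM values were scaled by TMM factors, a correction for library composition, of 0.971 to 1.01. The labelled cell type was checked against its markers. Summed over 8 macrophage markers, which include Csf1r, Cd68 and Adgre1, the level was 5682 and 6002 CPM in control libraries and 5877 and 5870 CPM in the MK-8931 libraries. Of these markers Itgam, which encodes the sorted antigen CD11b, rose from 220.3 and 180.1 CPM to 328 and 345 CPM (log2 fold change 0.75, adjusted p = 0.0485). The other 7 did not pass, among them Ptprc, which encodes CD45 (0.37, adjusted p = 0.343), and Aif1 (−0.28, adjusted p = 0.606). Markers of neutrophils moved with the groups. Of 14 neutrophil genes 9 were tested, 8 of them rose, and the list summed to 86.1 and 85.2 CPM in control libraries against 556 and 921 CPM with MK-8931, while Elane was at 0 counts in all libraries and Ly6g in all but MK-8931 2. Of 8 dendritic cell markers 1 rose past the threshold, the chemokine gene Ccl22 (adjusted p = 0.0323). The list summed to 14.5 and 12.4 CPM against 27.2 and 35.3 CPM. Without overlap of the groups, 5 of its genes were higher and 1 was lower, against 21.2% of all genes higher and 20% lower. The lower one was Zbtb46 (log2 fold change −1.11, adjusted p = 0.606). It stood at 1.78 and 1.89 CPM in control libraries and at 0.667 and 1.03 CPM with MK-8931. Of 6 astrocyte markers 3 were tested and 0 passed, Aqp4 was at 0 counts in every library, and the list summed to 64.2 and 44.9 CPM against 82.2 and 96.9 CPM. Over all 13932 genes tested with edgeR's quasi-likelihood test, 139 (0.998%) passed an adjusted p of 0.05, 120 higher (0.861%) and 19 lower (0.136%) with MK-8931.

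Animal cells build cholesterol from acetyl-CoA through mevalonate, farnesyl diphosphate, squalene and lanosterol. The genes of this route are switched on by the membrane-bound transcription factor SREBP-2, the product of Srebf2. When sterols are scarce, Scap escorts SREBP from the endoplasmic reticulum to the Golgi, where proteases release its active part, and when sterols are plentiful, the Insig proteins hold Scap back. The related SREBP-1, the product of Srebf1, favours the genes of fatty acid synthesis and is itself induced by sterol-sensing liver X receptors. In macrophages both routes feed membrane growth, and desaturated fatty acids and sterol intermediates can influence inflammatory gene expression.

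The promoters of the sterol genes had sequence features in common. The route is known to be driven by SREBP, so motifs that go with SREBP are not independent of the choice of genes. The share over all genes was taken without regard to expression in these libraries. The RefSeq promoter table (build GRCm38.p6) held 25 of the 32 genes, 18 sterol and 7 fatty acid genes, and the 250 bases before each transcription start were searched on both strands. SREBP is known to act together with NF-Y, which binds the letters CCAAT. This box stood in 16 of the 18 sterol genes (88.9%), in 3 of the 7 fatty acid genes (42.9%) and in 37.5% of 27025 genes in the table. Acat2 and Scap were the sterol genes without it in this window, and Srebf1, Acss2 and Fasn the fatty acid genes with it. The Sp1 box GGGCGG stood in 17 sterol genes (94.4%), 4 fatty acid genes (57.1%) and 35.4% of all genes. The E-box CACGTG was found in 5 sterol genes (27.8%), in 0 fatty acid genes and in 6.86% of all genes. The strict sterol regulatory element TCACNCCAC was found in Hmgcs1 alone among the 25 genes and in 1.22% of all genes. Genes with several starts were counted once if any start had the motif, no motif contains another, and a match describes letters, not a bound site.

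**Figure D1:**
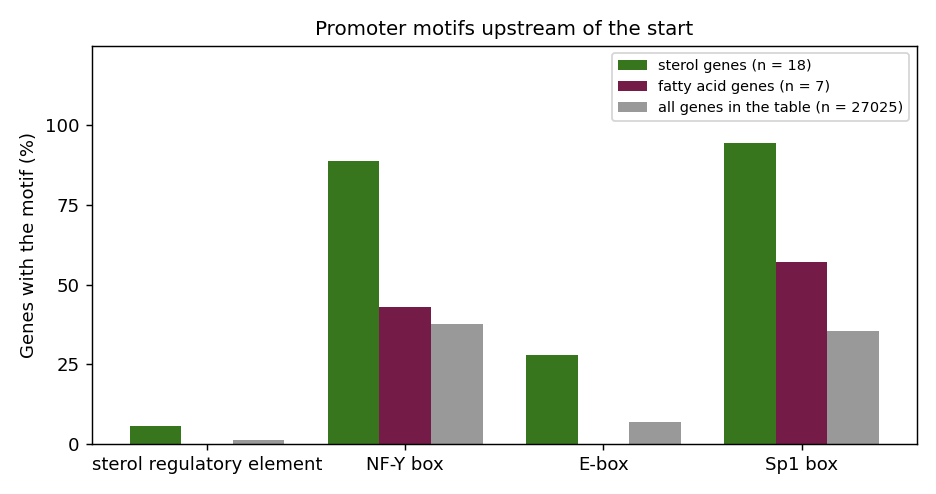
Share of genes (%, bars from 0) with each of 4 motifs in the 250 bases upstream of a start, for the 18 sterol genes, the 7 fatty acid genes and all 27025 genes of the RefSeq table. The NF-Y box was found in 88.9% of the sterol genes, 42.9% of the fatty acid genes and 37.5% of all genes.

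Promoters of 5 genes are shown because they hold from 1 to 5 boxes and stand before genes described below, each 5′ to 3′ on the gene's strand in GRCm38.p6. Capitals mark the NF-Y box on either strand (CCAAT or ATTGG) and, in Hmgcs1, also the sterol regulatory element TCACCCCAC. Srebf2 is cut to the 162 bases before the gene's start in the deposited table.
Hmgcs1 (chr13:119690101-119690350, plus strand, 3 boxes): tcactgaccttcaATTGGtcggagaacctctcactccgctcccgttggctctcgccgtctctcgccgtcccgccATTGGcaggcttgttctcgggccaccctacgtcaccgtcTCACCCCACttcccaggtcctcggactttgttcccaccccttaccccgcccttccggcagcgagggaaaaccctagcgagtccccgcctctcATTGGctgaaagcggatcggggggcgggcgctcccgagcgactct
Mvk (chr5:114444019-114444268, plus strand, 5 boxes): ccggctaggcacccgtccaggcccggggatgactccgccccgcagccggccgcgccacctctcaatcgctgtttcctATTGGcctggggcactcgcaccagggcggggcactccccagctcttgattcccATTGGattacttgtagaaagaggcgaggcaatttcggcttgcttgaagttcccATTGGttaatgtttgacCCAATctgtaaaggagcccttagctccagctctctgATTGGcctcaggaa
Mvd (chr8:122443423-122443672, minus strand, 2 boxes): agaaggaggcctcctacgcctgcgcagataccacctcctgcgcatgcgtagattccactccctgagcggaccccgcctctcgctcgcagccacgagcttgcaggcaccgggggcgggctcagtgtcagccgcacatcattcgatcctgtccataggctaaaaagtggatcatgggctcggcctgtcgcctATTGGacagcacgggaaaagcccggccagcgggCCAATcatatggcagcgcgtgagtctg
Srebf2 (chr15:82147019-82147180, plus strand, 1 box): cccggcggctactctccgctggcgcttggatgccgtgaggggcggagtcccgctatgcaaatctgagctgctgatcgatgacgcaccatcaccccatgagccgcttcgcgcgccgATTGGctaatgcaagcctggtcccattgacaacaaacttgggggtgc
Fasn (chr11:120824548-120824797, minus strand, 3 boxes): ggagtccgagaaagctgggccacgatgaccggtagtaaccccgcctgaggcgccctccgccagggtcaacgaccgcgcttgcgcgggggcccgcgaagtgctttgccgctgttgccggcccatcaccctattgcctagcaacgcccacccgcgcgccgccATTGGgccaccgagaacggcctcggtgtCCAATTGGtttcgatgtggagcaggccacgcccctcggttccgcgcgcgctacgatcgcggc
In Hmgcs1 the sterol regulatory element began at position −137, counted back from the start. Its NF-Y boxes began at −237, −176 and −45. Mvk had 5 boxes, the most among the 25 genes, and in Fasn the boxes at −62 and −59 overlap on opposite strands.

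Most sterol genes had somewhat higher levels with MK-8931, by less than the test across all genes could call. None of the 22 passed (0 higher and 0 lower in edgeR's quasi-likelihood test, adjusted p from 0.159 to 0.999, against 0.998% of all genes called). At an unadjusted p under 0.05, 5 were higher (Srebf2, Sqle, Stard4, Cyp51 and Mvd) and 0 lower, where 6.53% of all genes were higher and 4.25% lower. The 2 libraries of one group did not overlap those of the other for 81.8% of the sterol genes, 14 higher and 4 lower, against 41.2% of all genes (21.2% higher and 20% lower). Among the 7842 genes within the same range of mean level, 7.13 to 132 CPM and set without Fdps, these shares were 20% and 20.2%, or 40.2% in either direction. The sterol genes were chosen with earlier results of these data known and are not independent of each other. The shares therefore describe them and are no test. The median log2 fold change of the sterol genes was 0.23, with 15 positive and 7 negative values between −0.31 and 0.64, and the median of all genes was −0.0030. DESeq2 and limma-voom also called 0 of the 22, and the authors' deposited table had 0 sterol genes past 0.05 (1.5% of the 22381 genes tested there).

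Summed over the 22 genes, the level was 614 and 582 CPM in control libraries and 685 and 751 CPM with MK-8931. Both MK-8931 libraries were above both controls, and the mean went from 598 ± 22.3 to 718 ± 47.1 CPM (SD, n = 2), a difference of 20.1%. Within this sum Srebf2, the gene of a regulator and not of an enzyme, went from a mean of 108 to 157 CPM. The enzymes up to farnesyl diphosphate, those of squalene and cyclisation, and those after lanosterol had higher mean sums by 18.7%, 21.7% and 14.9%. With 2 libraries against 2, an exact two-sided permutation test cannot go below p = 0.333, so no p is given for sums. All 9 tested neutrophil markers were higher in the same 2 libraries, 8 of them past the threshold, as was the level of Itgam. The sums of the dendritic cell and astrocyte markers were also higher, though Zbtb46 was lower and Gfap, Slc1a2 and Aqp4 were low or absent. The part of these markers in the sterol sum was not tested. In bulk RNA, a change in the share of a cell type and a change of RNA per cell cannot be told apart. Between libraries of one group the sterol genes differed less at the median than all genes tested. This comparison was not matched by level, and whether the level of the sterol genes accounts for the smaller spread was not tested. The absolute log2 difference between the controls had a median of 0.13 over the sterol genes and 0.26 over all genes tested, and that between the MK-8931 libraries 0.15 and 0.22. Within the MK-8931 group, MK-8931 1 was above MK-8931 2 for only 5 of the 22 genes. Without MK-8931 2 the median log2 fold change was 0.13, and without MK-8931 1 it was 0.33.

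**Figure D2:**
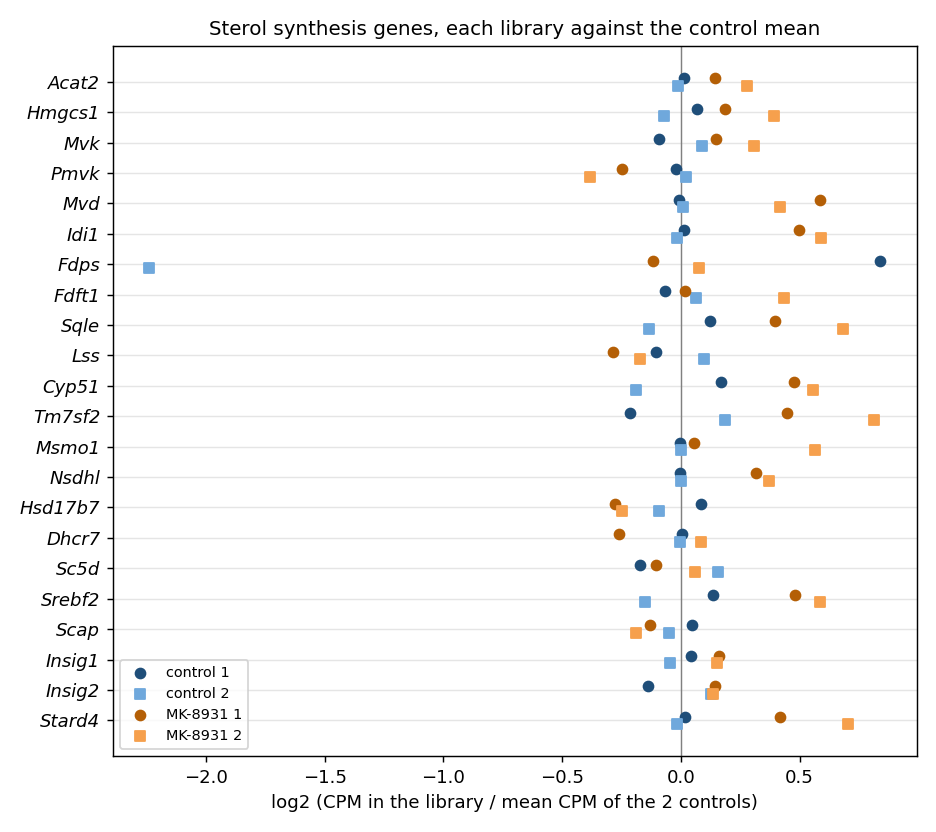
Level of each of the 22 sterol genes in each library as log2 of its CPM over the mean CPM of the 2 controls (x axis, 0 is the control mean), with genes in pathway order from top to bottom. Points are libraries. For 14 genes both MK-8931 points lie right of both controls and for 4 genes, Pmvk, Lss, Hsd17b7 and Scap, left of both. Of all genes tested, 21.2% were higher and 20% lower in this way. Fdps spreads widely because control 2 held 3 counts.

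Srebf2, the gene of the factor that drives the route, had the smallest p of the sterol genes. The gene lies on chromosome 15 from 82147181 to 82205379 (GRCm38, plus strand). Its level was 119 CPM in control 1, 97.5 CPM in control 2, 151 CPM in MK-8931 1 and 163 CPM in MK-8931 2. The groups did not overlap, and the gap between them was wider than the gap within either. The log2 fold change was 0.53 (SE 0.14, 95% interval 0.21 to 0.86, adjusted p = 0.159 in edgeR). The authors' deposited table gives 0.53 with an adjusted p of 0.066. Srebf2 passed in 3 of 10 alternative fits. Without control 1, where 5.13% of all genes passed, it was 0.68 (adjusted p = 0.0055), while without control 2 it was 0.40 (0.406) and without MK-8931 2 0.47 (0.652).

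The proteins that hold or move SREBP differed less. Insig1, itself a target of SREBP and a retainer of Scap, stood at 50.6 and 47.6 CPM in control libraries and at 54.8 and 54.6 CPM with MK-8931. Both MK-8931 libraries were above both controls, by a log2 fold change of 0.16 (SE 0.14, 95% interval −0.16 to 0.48, adjusted p = 0.784). Insig2, the second retainer, stood at 29.7 and 35.6 CPM in control libraries and at 36.1 and 35.9 CPM with MK-8931. Control 2 lay next to the MK-8931 libraries, and the log2 fold change was 0.14 (SE 0.16, 95% interval −0.23 to 0.51, adjusted p = 0.845). Scap, the escort, was at 52.4 and 49.0 CPM in control libraries and at 46.3 and 44.5 CPM with MK-8931. It was thus lower in both MK-8931 libraries, with a log2 fold change of −0.16 (adjusted p = 0.787). Stard4, a soluble protein that carries cholesterol between membranes, was at 17.4 and 17.0 CPM in control libraries and at 23.0 and 28.1 CPM with MK-8931. Its groups did not overlap, and its log2 fold change was 0.57 (SE 0.18, 95% interval 0.15 to 0.99, adjusted p = 0.271). With Srebf2 included, the 5 genes of regulators and carrier summed to 269 and 247 CPM in control libraries and to 311 and 326 CPM with MK-8931. Srebf2 alone stood at 119 and 97.5 CPM in control libraries and at 151 and 163 CPM with MK-8931. It had the largest difference in CPM of the 5.

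The 7 enzymes from acetyl-CoA to farnesyl diphosphate summed to 118 and 115 CPM in control libraries and to 135 and 142 CPM with MK-8931, a difference of 18.7%. Of these genes 5 were higher in both MK-8931 libraries and 1 lower, against 21.2% of all genes higher and 20% lower. Mvd, the decarboxylase that makes isopentenyl diphosphate (chromosome 8, 122433601 to 122443422, minus strand), had the smallest p of the 7. It stood at 19.4 and 19.7 CPM in control libraries and at 29.3 and 26.2 CPM with MK-8931. The controls differed by little and both MK-8931 libraries lay well above them, with a log2 fold change of 0.50 (SE 0.17, 95% interval 0.12 to 0.89, adjusted p = 0.292). Idi1, which isomerises isopentenyl diphosphate, was at 6.78 and 6.64 CPM in control libraries and at 9.49 and 10.1 CPM with MK-8931 (log2 fold change 0.55, SE 0.24, adjusted p = 0.469). Hmgcs1, the synthase that makes HMG-CoA, was at 45.1 and 41.0 CPM against 49.0 and 56.5 CPM (0.29, SE 0.15, adjusted p = 0.568). Acat2, which joins acetyl-CoA units at the entry of the route, and Mvk, which phosphorylates mevalonate, had log2 fold changes of 0.21 and 0.23. Pmvk, the kinase after Mvk, went the other way, at 18.7 and 19.3 CPM in control libraries and 16.0 and 14.6 CPM with MK-8931 (−0.31, SE 0.19, adjusted p = 0.636). Neighbouring steps of the route were thus higher (Mvk, Mvd) and lower (Pmvk) in the same libraries, none of them past the threshold.

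Fdps, the farnesyl diphosphate synthase, gave no usable comparison. It held 24 counts in control 1, 3 in control 2, 13 in MK-8931 1 and 14 in MK-8931 2, and its mean of 0.170 FPKM (counts scaled to library size and gene length) was the lowest of the 32 genes. The controls lay on both sides of the MK-8931 libraries. Its log2 fold change of −0.011 had a 95% interval from −2.31 to 2.29. On the annotation, 26.7% of its exon bases are shared with the same-strand gene Gm43738, which held 0 to 4 counts.

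At the branch to squalene and its cyclisation, the 3 enzymes differed from each other. Sqle, the squalene epoxidase and a rate-limiting step (chromosome 15, 59315077 to 59331192, plus strand), stood at 36.0 and 30.1 CPM in control libraries and at 43.5 and 53.0 CPM with MK-8931. The groups did not overlap, and the log2 fold change was 0.55 (SE 0.17, 95% interval 0.15 to 0.94, adjusted p = 0.255). Sqle passed in 2 of 10 alternative fits. It was 0.67 without control 1 (adjusted p = 0.0411, with 5.13% of all genes called), 0.42 without control 2 (0.574) and 0.38 without MK-8931 2 (0.797). Fdft1, the squalene synthase, was at 15.2 and 16.7 CPM against 16.1 and 21.5 CPM, so that MK-8931 1 lay between the controls and MK-8931 2 set the difference (0.24, or 0.0037 without MK-8931 2). Its exons share 18.3% of their bases with the opposite strand of Ctsb, a gene with 199940 to 256645 counts per library, and without strand the reads of this stretch cannot be told apart. Lss, which closes the rings to lanosterol, was lower in both MK-8931 libraries, at 19.2 and 22.02 CPM against 16.9 and 18.3 CPM (−0.23, SE 0.18, adjusted p = 0.753).

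The 7 enzymes after lanosterol summed to 156 and 152 CPM in control libraries and to 162 and 191 CPM with MK-8931. In both MK-8931 libraries 4 of them were higher and 1 lower, against 21.2% of all genes higher and 20% lower. Cyp51, the lanosterol demethylase (chromosome 5, 4081145 to 4104746, minus strand), stood at 32.1 and 25.1 CPM in control libraries and at 39.8 and 42.1 CPM with MK-8931. The lowest MK-8931 library was above the highest control, and the log2 fold change was 0.52 (SE 0.17, 95% interval 0.12 to 0.91, adjusted p = 0.286). Of 10 alternative fits, Cyp51 passed in 1, the one without control 1, with 0.70 (adjusted p = 0.0406, 5.13% of all genes called), and without control 2 it was 0.35 (0.784). Nsdhl, which helps remove the methyl groups at carbon 4 of the sterol, was at 16.8 and 16.9 CPM against 20.98 and 21.7 CPM (0.34, SE 0.18, adjusted p = 0.561). Tm7sf2, a sterol reductase, had the largest fitted difference of the sterol genes (0.64, SE 0.29, adjusted p = 0.479) at a low level, with 4.79 and 6.34 CPM in control libraries and 7.59 and 9.79 CPM with MK-8931. The file gives Tm7sf2 a longer gene model than the annotation does, 5593 against 4403 exon bases. Of the annotated exon bases 12.1% are shared with Vps51, which held 39 to 83 counts. The annotated model ends at 6068373 and the deposited one at 6077197, and the overlap of the deposited model was not computed. Msmo1, the methylsterol oxidase, was higher mainly in MK-8931 2, at 32.1 and 32.2 CPM in control libraries against 33.5 and 47.6 CPM, and its log2 fold change of 0.33 was 0.045 without that library. Hsd17b7, a reductase of the same demethylation, was lower with MK-8931, at 21.9 and 19.4 CPM against 17.0 and 17.4 CPM (−0.26, SE 0.18, adjusted p = 0.704). Dhcr7 and Sc5d, which act at the end of the route, overlapped between the groups and had log2 fold changes of −0.078 and −0.021.

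Between genes, levels can be compared only per length, in FPKM. Of the sterol genes Srebf2 had the highest mean over the 4 libraries (18.3 FPKM), followed by Insig1 (16.7), Mvd (12.7) and Hmgcs1 (10.4). The order of the first pair differed between the groups, since in control libraries Insig1 (mean 15.8 FPKM) stood above Srebf2 (15.0), with overlapping values. Sterol enzymes other than Fdps lay between 1.27 FPKM for Tm7sf2 and 12.7 FPKM for Mvd. Pmvk (9.97) and Insig2 (9.84) were next in the order after Hmgcs1, and their ranges over libraries overlap with that of Hmgcs1. Among the fatty acid genes Scd2 stood highest at 84.5 FPKM, before Acly (40.9), Fads1 (31.4) and Srebf1 (20.2). Scd1, the other stearoyl-CoA desaturase, was at 1.10 FPKM, close to Elovl6 (1.03) and Acss2 (1.46). Fads2 (4.16 FPKM) rests on a deposited length of 1508 bases where the annotation has 3295 exon bases, and Fads1 on 3456 where it has 4812.

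**Figure D3:**
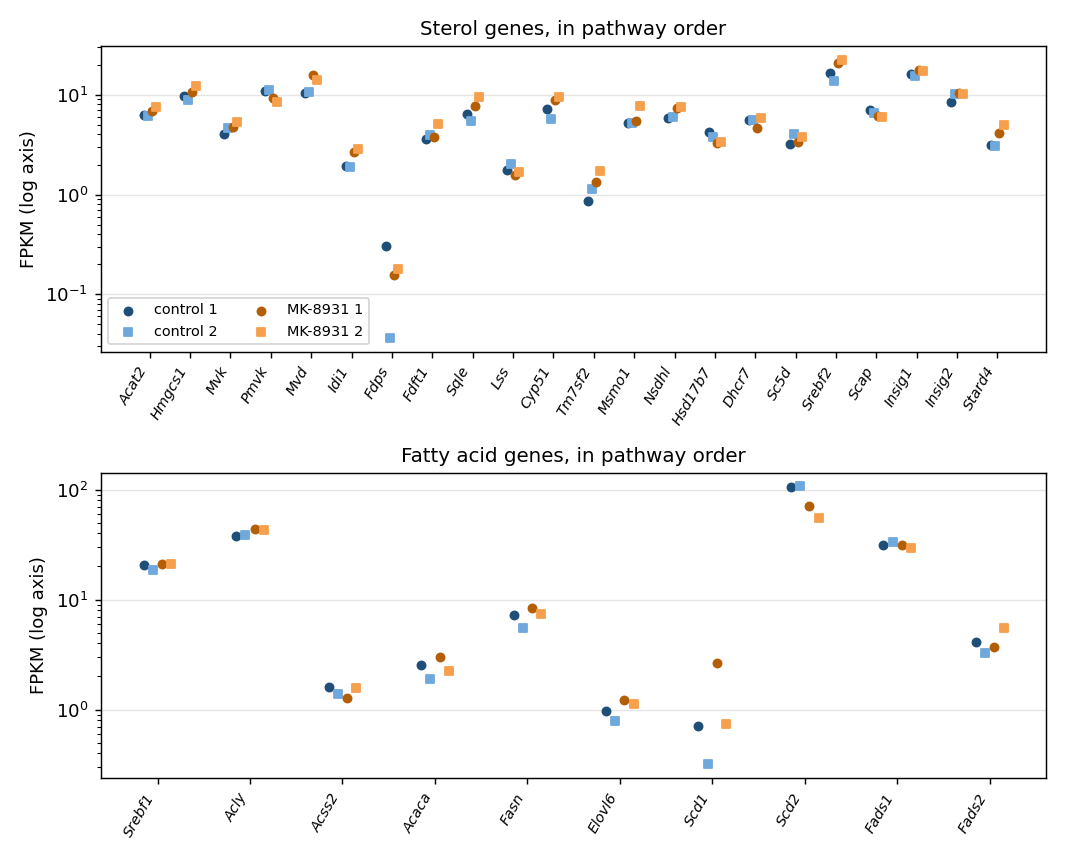
FPKM (log axis) of the 22 sterol genes and the 10 fatty acid genes in the 4 libraries, in pathway order, with one point per library. Scd2 has the highest mean (84.5 FPKM) and Fdps the lowest (0.170 FPKM), and the libraries of most genes lie close together compared with the distances between genes.

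The 10 fatty acid genes did not share one direction, and their sum was set by 1 gene. None of them passed (0 higher and 0 lower in edgeR, adjusted p from 0.0537 to 0.954, against 0.998% of all genes called). At an unadjusted p under 0.05 Scd1 was higher and Scd2 lower, where 6.53% of all genes were higher and 4.25% lower. The libraries of the groups did not overlap for 70% of them, 5 higher and 2 lower, against 41.2% of all genes (21.2% higher and 20% lower). These genes too were chosen with earlier results known, so the share is a description and no test. The median log2 fold change was 0.23, with 7 positive and 3 negative values between −0.74 and 1.73. Leaving out 1 library moved this median, to 0.33 without control 1 and 0.079 without control 2, and it was 0.14 without MK-8931 1 and 0.15 without MK-8931 2. Their summed level was 1159 and 1121 CPM in control libraries and 1032 and 912 CPM with MK-8931, a difference of −14.8% between the means. Without Scd2 the other 9 genes summed to 584 and 540 CPM in control libraries and to 645 and 606 CPM with MK-8931. The sum over all 10 genes was thus lower, and the sum without Scd2 higher, in both MK-8931 libraries. DESeq2 and limma-voom each called 1 of the 10, Scd2, with 2.82% and 1.08% of all genes called.

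Scd2, a desaturase that puts the double bond into stearoyl-CoA and is known as the form abundant in brain, was the member nearest to the threshold. The file places it on chromosome 19 from 44293676 to 44306864 (plus strand). Its level was 576 CPM in control 1, 581 CPM in control 2, 386 CPM in MK-8931 1 and 306 CPM in MK-8931 2, from 10694, 11378, 7531 and 5631 counts. The controls were almost equal, and both MK-8931 libraries lay far below them. The mean went from 579 ± 3.93 to 346 ± 56.7 CPM (SD, n = 2), 0.598 of the control level, and the log2 fold change was −0.74 (SE 0.14, 95% interval −1.07 to −0.42). It ranked 167 of 13932 genes by p, and its adjusted p was 0.0537 in edgeR, just above the threshold. The authors' deposited table gives −0.75 with an adjusted p of 0.00028, the only one of the 32 genes past 0.05 there, where 1.5% of genes were. In 6 of 10 alternative fits Scd2 passed, with adjusted p over all 10 from 3.44e-05 to 0.461 and log2 fold changes from −0.93 to −0.60. The highest p came without MK-8931 2, where it was not called and 0.635% of all genes were. It passed with no filter on low counts (2.29% of all genes called), with the replicate number as a block (5.33%), without control 1 (5.13%) and without control 2 (1.47%), and with DESeq2 and limma-voom. It missed the threshold with library size alone (0.926%), with DESeq2's size factors (0.998%) and without MK-8931 1 (1.03%).

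Scd2 made up 49.7% and 51.8% of the summed CPM of the fatty acid genes in control libraries and 37.4% and 33.6% with MK-8931. Markers of other cells were read beside it. Of 7 markers of oligodendrocytes, a cell type known for Scd2, 3 were tested and 0 passed, Mog, Mobp and Opalin were at 0 counts in every library, and the list summed to 117 and 122 CPM in control libraries and 108 and 110 CPM with MK-8931. The macrophage sum overlapped between the groups (5682 to 6002 against 5870 to 5877 CPM), and Itgam and the sums of the neutrophil, dendritic cell and astrocyte markers given above were higher in the libraries with less Scd2. Within those sums Zbtb46 was lower and Gfap held at most 5 counts. The part of these cells in the Scd2 difference was not tested.

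Scd1 (chromosome 19, 44394451 to 44407709, minus strand), which has the same activity as Scd2 and is a classical target of SREBP-1 and liver X receptors, differed in the other direction at a low level. It held 64 and 30 counts in control libraries, against 251 and 66 with MK-8931, or 3.45, 1.53, 12.9 and 3.59 CPM. MK-8931 1 stood far above the rest, while MK-8931 2 was level with control 1. The log2 fold change was 1.73 (SE 0.60, 95% interval 0.36 to 3.10, adjusted p = 0.308). One library decided its size: it was 0.52 without MK-8931 1 and 2.36 without MK-8931 2, where it passed (adjusted p = 0.0105, with 0.635% of all genes called). Scd1 made up 0.595% and 0.263% of the counts of both desaturases in control libraries and 3.23% and 1.16% with MK-8931. Over the aligned coding bases the genes are 90.4% identical, and 2.68% of the 50-base windows of Scd2 occur in Scd1.

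**Figure D4:**
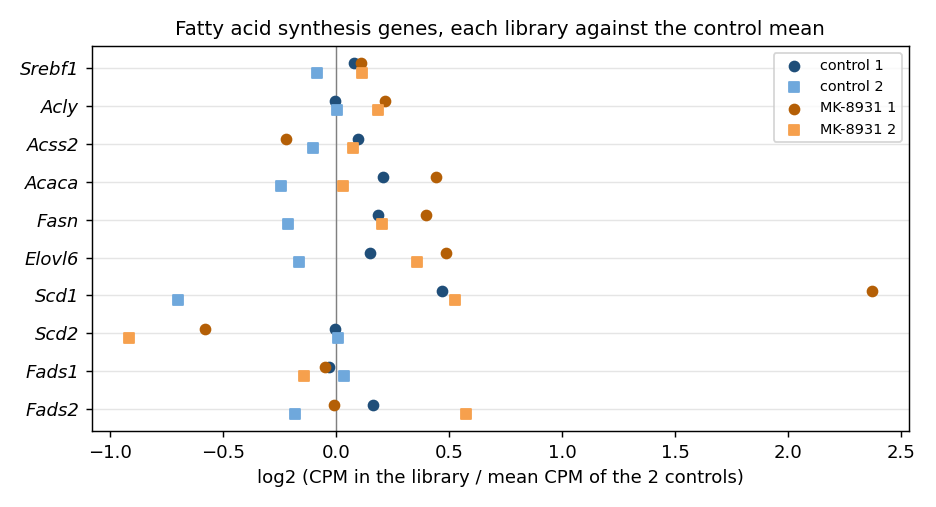
Level of each of the 10 fatty acid genes in each library as log2 of its CPM over the mean CPM of the 2 controls (x axis, 0 is the control mean). Both MK-8931 points of Scd2 lie far left of both controls (386 and 306 CPM against 576 and 581 CPM), and for Scd1 one MK-8931 library (12.9 CPM) lies apart from the other three.

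Of the 6 genes that control or make the saturated chain, 4 were higher in both MK-8931 libraries and 0 lower, against 21.2% of all genes higher and 20% lower. Past the threshold were 0 of the 6, against 0.998% of all genes. They summed to 464 and 419 CPM in control libraries and to 518 and 492 CPM with MK-8931, a difference of 14.5%. Srebf1, the gene of the factor that favours this route, was at 116 and 104 CPM in control libraries and at 118 and 119 CPM with MK-8931. Control 1 lay next to the MK-8931 libraries, and the log2 fold change was 0.11 (SE 0.13, 95% interval −0.18 to 0.41, adjusted p = 0.848). Acly, which makes cytosolic acetyl-CoA from citrate, was at 201 and 203 CPM in control libraries and at 234 and 230 CPM with MK-8931. Its pairs of libraries were tight and did not overlap, with a log2 fold change of 0.20 (SE 0.12, 95% interval −0.068 to 0.47, adjusted p = 0.632). Fasn, the synthase that builds palmitate, was at 80.3 and 60.9 CPM in control libraries and at 93.1 and 81.2 CPM with MK-8931. MK-8931 2 lay barely above control 1, and the log2 fold change was 0.30 (SE 0.17, 95% interval −0.080 to 0.69, adjusted p = 0.6). It was 0.51 without control 1 and 0.12 without control 2. Elovl6, which lengthens palmitate to stearate, was at 6.30 and 5.06 CPM against 7.95 and 7.29 CPM (0.42, SE 0.28, adjusted p = 0.674). Acaca, which makes malonyl-CoA, varied as much within the groups as between them, at 44.0 and 32.2 CPM against 51.7 and 38.9 CPM (0.25, SE 0.20, adjusted p = 0.758). With 1 library left out Acaca lay between 0.023 (without MK-8931 1) and 0.48 (without control 1). Acss2, which makes acetyl-CoA from acetate, overlapped between the groups (−0.068, adjusted p = 0.954).

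The desaturases of long polyunsaturated chains also stayed below the threshold. Fads1, the delta-5 desaturase, was at 110.0 and 115 CPM in control libraries and at 109 and 102 CPM with MK-8931. Control 1 and MK-8931 1 were nearly equal, and the log2 fold change was −0.096 (SE 0.13, adjusted p = 0.871). Fads2, the delta-6 desaturase, was at 6.30 and 4.96 CPM against 5.59 and 8.37 CPM (0.31, SE 0.31, adjusted p = 0.814). Its groups overlapped, and without MK-8931 2 the value was −0.020. Among the 4 desaturases Scd2 had the smallest p and the highest level per length. By fitted size Scd1, with the lowest level per length (1.10 FPKM), differed most (1.73 against −0.74 for Scd2).

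**Figure D5:**
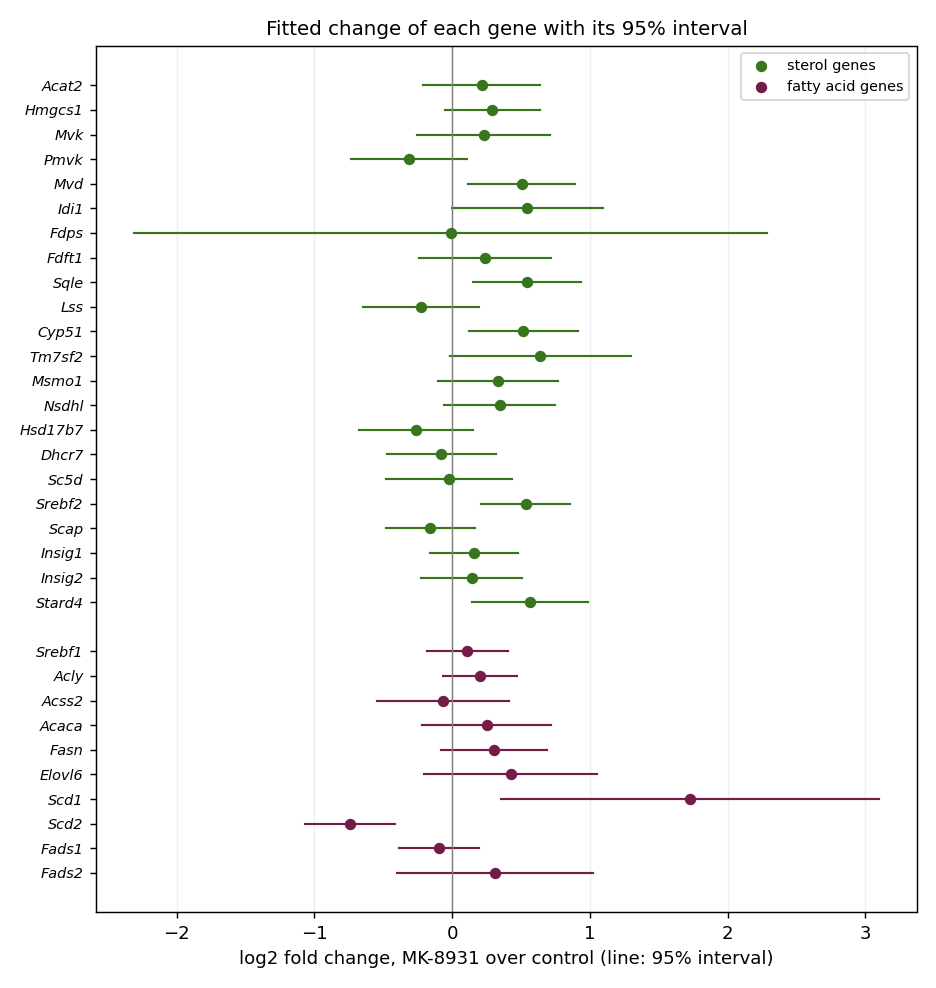
Fitted log2 fold change of each gene, MK-8931 over control (points), with its 95% interval (lines), for the 22 sterol genes above and the 10 fatty acid genes below. Intervals of Mvd, Sqle, Cyp51, Srebf2, Stard4 and Scd1 lie above 0 and that of Scd2 below 0 (−1.07 to −0.42), before any adjustment for the number of genes tested.

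Other genes of these pathways, in lists that hold none of the 32 genes, did not pass in either direction, against 0.998% of all genes called. Of 11 genes that cleave SREBP or degrade sterol-regulated proteins, 0 rose and 0 fell (median log2 fold change −0.027). The smallest p belonged to Ube2g2, a ubiquitin-conjugating enzyme (−0.43, SE 0.15, adjusted p = 0.323), and Erlin2, of the complex that degrades sterol-regulated membrane proteins (0.21, adjusted p = 0.67). Of 11 genes of the side branches from mevalonate, such as protein prenylation and ubiquinone, 0 rose and 0 fell (median −0.057), with the smallest p for Pggt1b, a prenyltransferase subunit (−0.39, adjusted p = 0.518), and Coq2 (−0.20, adjusted p = 0.8). Of 12 tested genes of cholesterol storage, transport and oxysterols, 0 rose and 0 fell (median 0.020). There Ch25h, which makes 25-hydroxycholesterol, an oxysterol that blocks SREBP processing, was at 46.5 and 61.7 CPM in control libraries and at 68.0 and 77.5 CPM with MK-8931 (0.43, SE 0.17, adjusted p = 0.407). Nceh1, a cholesteryl ester hydrolase, was lower (−0.24, adjusted p = 0.524). Of 22 other genes of fatty acid synthesis, elongation and activation, 0 rose and 0 fell (median 0.064), with the smallest p for Lpcat3, which puts polyunsaturated chains into phospholipids (−0.41, SE 0.14, adjusted p = 0.307), and Oxsm, of mitochondrial fatty acid synthesis (0.58, adjusted p = 0.521). At an unadjusted p under 0.05, 1 gene of these 4 lists was higher (Ch25h) and 2 were lower (Ube2g2 and Lpcat3), where 6.53% of all genes were higher and 4.25% lower.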

How the data were processed

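Bulk RNA was measured in 2 control and 2 MK-8931 libraries, grouped by their titles. The deposited counts are whole numbers of reads per gene, a raw count by the file headers. The deposited FPKM columns come from the authors, and 100% of their values equal count times a library constant over gene length (relative tolerance 1e-06), so they serve only to compare levels between genes. The submitters' processing notes name CASAVA and mm9, but 98.3% of 54409 shared gene identifiers have the coordinates of GENCODE M21 on GRCm38, which are used here. For Tm7sf2, Scd1, Scd2, Fads1 and Fads2 the file's coordinates differ from it and are given as deposited. Which aligner and counting tool were run, and whether strand was used, is not given in the sources used here, so reads of overlapping genes or close copies may be split.

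The fit used edgeR 4.0.16 (R 4.3.3) on all genes: filterByExpr with a minimum count of 10, which kept 13932 genes and all 32 described here, TMM scaling, and the two-sided quasi-likelihood F test with robust dispersions. P-values were adjusted by Benjamini-Hochberg over all genes tested, and the threshold was 0.05. SE is that of the fitted log2 fold change, and intervals are 95%. Groups do not overlap where both libraries of one lie above both of the other. The scripts were tested on simulated data. Within each group the libraries differed beyond sampling noise (chi-square over degrees of freedom 19.6 and 12.5), so none was taken for a copy. Limits set by 3 counts cover counting error only.

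Every one of the 32 genes may be named. Full values were given for the 5 smallest p and the 3 highest FPKM of each group and for the SREBP and Insig genes, and the 2 smallest p of each pathway list were named. The genes and lists were chosen with earlier results of these data known. Alternatives were 2 other scalings, no filter, DESeq2 1.42.0, limma-voom (limma 3.58.1), a replicate block and leaving out each library. Promoter motifs were searched in RefSeq sequences. No set test was run.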

Additional observations from a re-analysis of the deposited data

How the results depend on the processing

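With DESeq2's size factors or library size alone, none of the 32 genes passed. With no filter on low counts, 1 sterol gene (Srebf2) and 2 fatty acid genes (Scd1 and Scd2) passed, and 542 of 23654 genes did. DESeq2 and limma-voom each called 1 fatty acid gene, Scd2, with 362 and 150 genes called in all. With 1 library left out, 0 to 3 sterol genes and 0 to 1 fatty acid genes passed, the 3 without control 1, where 763 of 14861 genes (5.13%) passed against 0.635% to 1.47% in the other such fits. The sterol median then lay between 0.13 and 0.33, the fatty acid median between 0.079 and 0.33, the log2 ratio of the summed sterol level between 0.18 and 0.32 and that of the fatty acid level between −0.33 and −0.16. The lone library left in a group was assumed to vary like the other group.

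The replicate number as a block gave 2 sterol genes (Sqle and Srebf2) and 2 fatty acid genes (Scd1 and Scd2), and moved the calls over all genes from 139 to 743. The differences between libraries 1 and 2 of the groups correlated by 0.197 over genes, but with 2 pairs and no shared batch in the labels the numbers were not taken as pairs.

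Directions turned for 5 genes. With 1 library left out, Sc5d lay between −0.18 and 0.15, Fdps between −0.85 and 2.16, Acss2 between −0.23 and 0.064, Dhcr7 between −0.27 and 0.076 and Fads2 between −0.020 and 0.57. Sc5d was 0.0084 with library size alone, and Fdps 0.63 with limma-voom and 0.40 with the replicate block. The cause was not tested. The other 293 values of single genes kept their direction and side of the threshold, and 15 passed it in the same direction. DESeq2 gave no adjusted p for Fdps.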
